A study of Mus musculus with 18 samples.

Results

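The untreated, CSF-1-grown bone marrow macrophage is the starting point from which the responses to TGF-β1 and BMP4 were measured in this study, and its transcriptome is described here from the 6 libraries labelled untreated, of 18 in all. The 6 libraries were taken by their treatment label and pooled over both genotype labels, and genes were ranked by their mean over the 6. Of the 6 untreated libraries, 3 carry the label Smad1 fl/fl + LyzM-Cre (MyS1KO), called knockout-labelled here, and 3 carry the label Smad1 fl/fl, called floxed-labelled. Both kinds of mice had loxP-flanked Smad1 alleles, and LyzM-Cre is a Cre recombinase expressed from the Lyz2 gene, which is active in myeloid cells. The other 12 libraries came from cells given 10 ng/ml TGF-β1 (6 libraries) or 50 ng/ml BMP4 (6 libraries) for 4 h, with 3 libraries of each genotype label. Marrow of the tibia came from mice of 2 to 3 months. Cells spent 24 h with 15% fetal calf serum, 12 ng/ml CSF-1 and 10% WEHI-3 conditioned medium, which supplies interleukin-3. Those that had not attached were then grown for 48 h with serum and 120 ng/ml CSF-1. They were kept without serum for about 16 h, and the untreated cells had no ligand in the 4 h that followed. Whether the 3 libraries of a group stem from different mice or dishes is not given in the labels. Each p-value therefore describes the scatter of these libraries, which may be partly technical.

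CSF-1 is the growth factor on which mononuclear phagocytes depend for survival, proliferation and differentiation, and it acts through the receptor tyrosine kinase Csf1r. Macrophages take up particles, debris and old red cells and break them down in acidic lysosomes, where cathepsins cut proteins, lipases and glycosidases digest lipids and sugars, and the V-ATPase pumps protons. Iron freed from heme is stored in ferritin or exported through ferroportin, cholesterol leaves with apolipoprotein E, and complement C1q and Fc receptors mark and bind targets.

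Expression was measured by sequencing polyadenylated RNA with 150 bp paired-end reads. Levels are given as FPKM, which are read counts divided by gene length and by library size, so that genes of different length can be set side by side. Total counts ran from 15989866 to 16533837 in knockout-labelled and from 18565040 to 23086927 in floxed-labelled untreated libraries, so depth did not overlap between the labels. In each untreated library, 20131 to 20855 genes had at least 1 count. A gene with no count could have had up to 3 counts, or 0.130 to 0.188 CPM (counts scaled to library size), considering counting error only. Smad1, the targeted gene, was at 4.26, 4.12 and 4.10 FPKM in the knockout-labelled libraries, against 4.77, 4.89 and 4.93 FPKM in the floxed-labelled libraries. The groups did not overlap, but the difference of -0.22 on the log2 scale (SE 0.08) was not called, with an edgeR quasi-likelihood adjusted p of 0.13. Gene-level counts over all exons do not show whether a deleted part of Smad1 was transcribed. Lyz2, which encodes lysozyme M, was at 11401, 13048 and 11806 FPKM in the knockout-labelled libraries, against 46.9, 7379 and 7318 FPKM in the floxed-labelled libraries numbered 1, 2 and 3. The floxed-labelled library 1 thus stood far below the other 5 libraries for this gene, and the knockout-labelled libraries were above all floxed-labelled ones. The same floxed-labelled number was low in the other treatments, with 28.3 to 56.2 FPKM over the 3 treatments. The neighbouring copy Lyz1 was at 4.05, 4.13 and 4.33 FPKM in the knockout-labelled libraries and 7.35, 7.81 and 10.2 FPKM in the floxed-labelled ones, and how reads were split between the near-identical Lyz1 and Lyz2 is uncertain. The LyzM-Cre allele carries Cre in place of a working Lyz2 copy, so the Lyz2 values go against the labels. The Smad1 difference lay in the direction of the labels but was small and not called. Neither gene thus settles the genotype of the libraries. A difference between knockout-labelled and floxed-labelled libraries is therefore one between labels, and its relation to the genotype was not tested. Counts of genes called between the labels, and the calls of named genes, are also given without the floxed-labelled libraries numbered 1.

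The defining genes of the labelled cell type were present. All 18 genes of the macrophage marker list were at 10 FPKM or more, 13 of them at 100 FPKM or more, and their median was 613 FPKM. Csf1r was at 923, 911 and 953 FPKM in the knockout-labelled libraries and at 830, 940 and 895 FPKM in the floxed-labelled libraries. Mpeg1, which encodes the pore-forming protein perforin-2, was at 993, 1113 and 1050 FPKM in knockout-labelled and 1082, 980 and 976 FPKM in floxed-labelled libraries. Ctsb, which encodes the lysosomal protease cathepsin B, was at 1944, 2392 and 2063 FPKM in knockout-labelled and 2252, 2191 and 2199 FPKM in floxed-labelled libraries. For these 3 genes the groups overlapped, and the coefficients of variation over the 6 libraries were 4.77%, 5.61% and 7.11%. Adgre1, the gene of the F4/80 antigen by which mouse macrophages are recognised, was at 1303 ± 107 FPKM (SD, n = 6), Cd68 at 808 ± 67.3 FPKM and Tyrobp, an adaptor of activating receptors, at 893 ± 96.5 FPKM. Toward the lower end of the list were Itgam (CD11b) at 44.2 FPKM and Mertk, a receptor for dying cells, at 42.2 FPKM.

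The highest FPKM of all belonged to no macrophage gene but to Gm23935, an entry of 57 bases annotated as a miRNA gene on the plus strand of chromosome 16 (GRCm38, chr16:11144125-11144181). It was at 41395, 43215 and 42211 FPKM in the knockout-labelled libraries, against 11793, 12330 and 13500 FPKM in the floxed-labelled libraries. It held 8.38% of all FPKM but only 0.158% of all counts, and by counts it ranked 44. The reads are longer than the entry, and dividing by so short a length raises its FPKM. The entry Gm24270 on the minus strand of chromosome 9 (chr9:56223715-56223771) ranked 97, and Gm24187 on the minus strand of chromosome 13 (chr13:9834469-9834525) lay below the first 100. Their sequences are shown because they are nearly the same, and whether reads of one were counted at another was not tested. Capitals mark the base at which Gm23935 and Gm24187 differ, G11A counted from the 5′ end of the entry, and Gm24270 equals Gm23935 at every base (GENCODE transcripts, GRCm38).
Gm23935: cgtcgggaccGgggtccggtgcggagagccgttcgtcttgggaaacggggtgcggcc
Gm24187: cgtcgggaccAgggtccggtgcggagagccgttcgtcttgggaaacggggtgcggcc
The 57 bases of Gm23935 occur whole in 3 annotated transcripts, the third being Gm24245, which had no counts. CT010467.1, annotated as a ribosomal RNA gene on chromosome 17 (chr17:39846353-39848827), ranked 22. It was at 1380, 1731 and 1383 FPKM in the knockout-labelled libraries, against 464, 459 and 453 FPKM in the floxed-labelled libraries. These 4 entries held 13.2% to 13.3% of the FPKM in the knockout-labelled libraries and 4.07% to 4.61% in the floxed-labelled libraries. In counts they made up 0.587% to 0.676% of the knockout-labelled and 0.185% to 0.193% of the floxed-labelled libraries. Because FPKM shares sum to a fixed total, every other share below moves with these entries, and shares are repeated within protein-coding FPKM where that matters.

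The RNA was concentrated in few genes. Of 54532 annotated genes, 28848 had no count in any of the 6 libraries. A mean of at least 1 FPKM was reached by 11226 genes, of which 9845 were protein-coding, out of 22046 protein-coding genes in the annotation. At least 10 FPKM were reached by 4460 genes, 100 FPKM by 424 genes and 1000 FPKM by 21 genes. In each of the 6 libraries, 10312 genes were at 1 FPKM or more. The 10 most abundant genes held 21.5 ± 5.08% of FPKM (SD, n = 6), with 25.8% to 26.4% in knockout-labelled and 15.7% to 17.7% in floxed-labelled libraries. The 100 most abundant held 39.2 ± 3.73%, with 42.1% to 43.2% in knockout-labelled and 35.3% to 36.2% in floxed-labelled libraries. Neither pair of ranges overlapped, but without the 3 entries of 57 bases and CT010467.1 the first 100 held 33.7 ± 0.646%, between 32.9% and 34.8% in all 6 libraries. Without these entries the first 10 still held more in knockout-labelled libraries, 15.7% to 16.6%, than in floxed-labelled libraries, 13.1% to 14.9%. Lyz2 is among these 10, with 11401 to 13048 FPKM in knockout-labelled and 46.9 to 7379 FPKM in floxed-labelled libraries. The share of the first 10 without Lyz2 was not calculated. The first 500 genes held 58.6%, the first 1000 held 68.1 ± 1.61% and the first 5000 held 91.9% of FPKM.

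**Figure D1:**
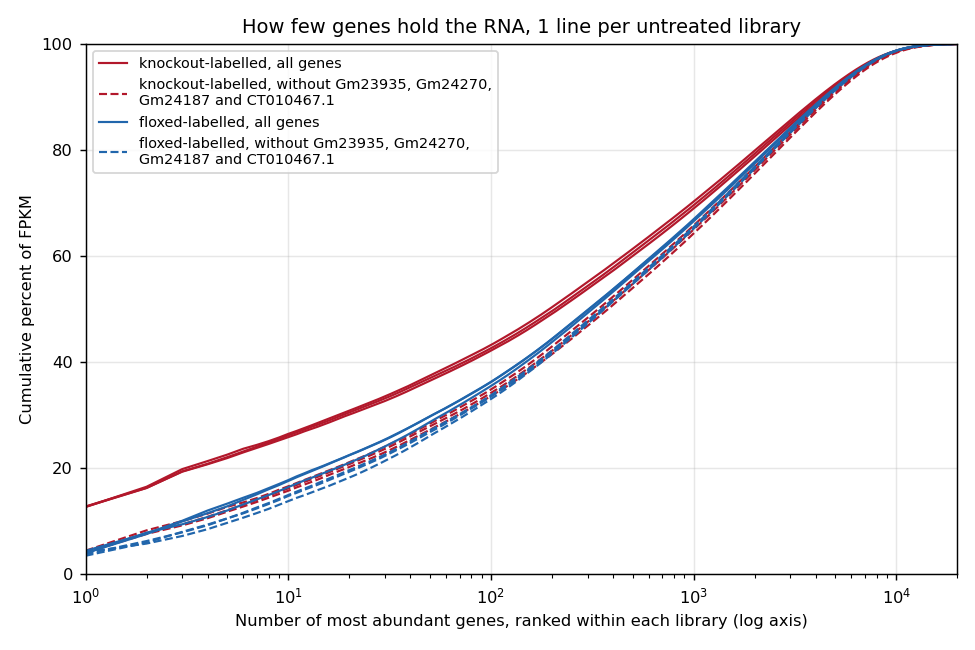
Cumulative share of FPKM (percent, vertical axis) against the number of most abundant genes, ranked within each library (log axis), with 1 line per untreated library; solid lines use all genes and dashed lines leave out the 3 entries of 57 bases and CT010467.1. With all genes the knockout-labelled lines lie above the floxed-labelled ones over the first 1000 genes, and the dashed lines lie closer together. Without these entries, the 10 genes highest by the mean of the 6 libraries, Lyz2 among them, hold 15.7% to 16.6% in knockout-labelled libraries. In floxed-labelled libraries they hold 13.1% to 14.9%.

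Counts, which favour long genes, gave a partly different order. Of the 100 genes highest in FPKM, 57 were also among the 100 highest in CPM, and of the first 10, 7 were shared. In counts Ctsb came first, followed by Lyz2, Psap, Fth1, Ftl1, mt-Co1, Eef1a1, Actb, Mpeg1 and Apoe. Lrp1, a large endocytic receptor, was among the first 15 by counts but ranked 172 by FPKM. Of the first 100 genes by FPKM, 96 were protein-coding. The other 4 were Gm23935, CT010467.1, Gm24270 and Gm10076, a long non-coding RNA entry at 337 ± 52.2 FPKM.

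**Figure D2:**
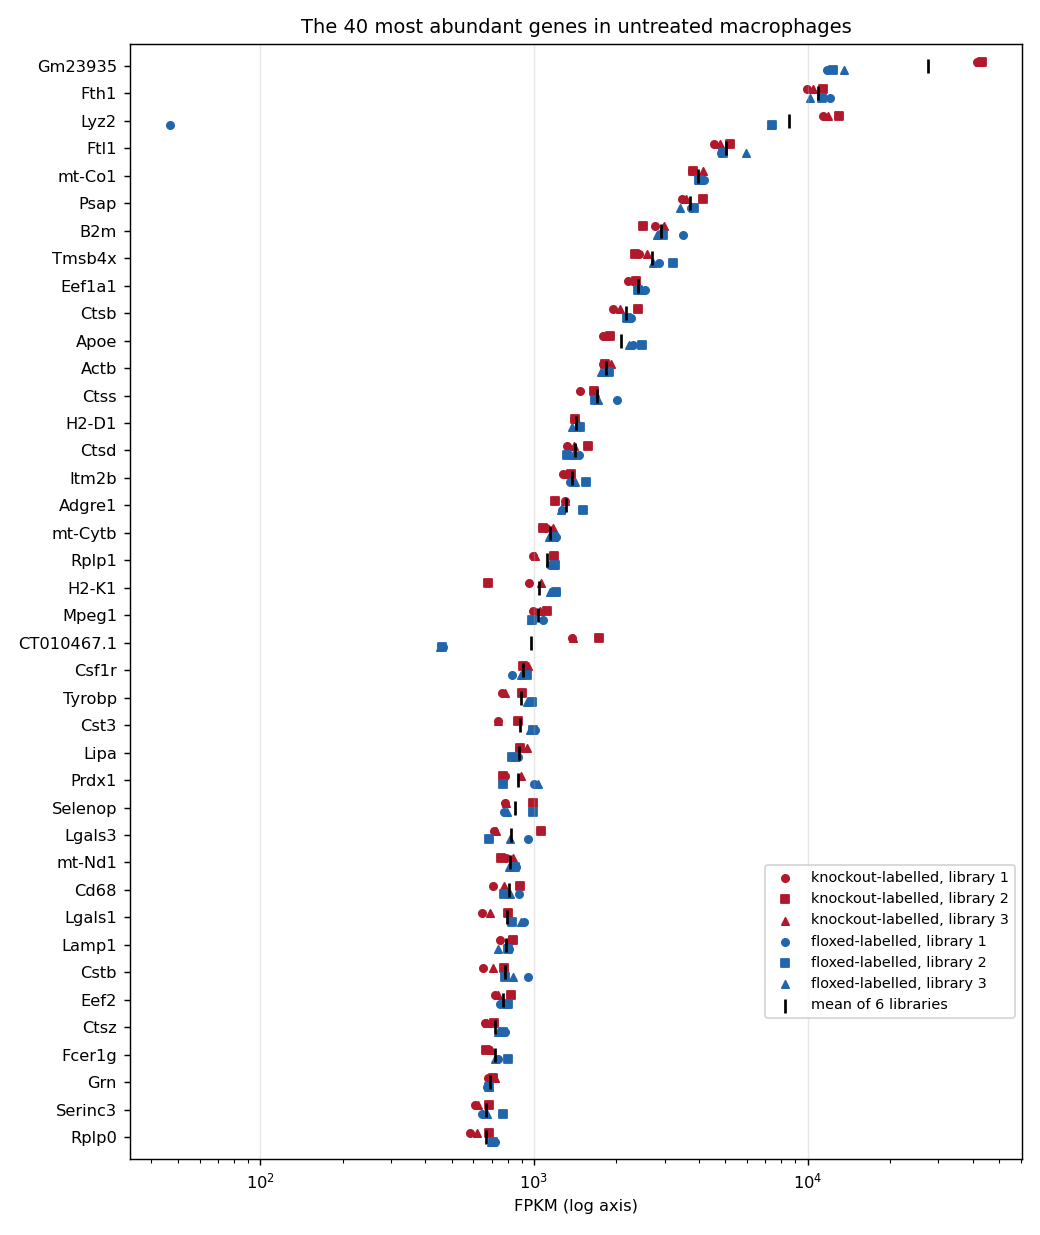
FPKM (log axis) of the 40 most abundant genes in each untreated library, with knockout-labelled and floxed-labelled libraries as separate points (a symbol for each library number) and the mean of the 6 as a short line. Most genes have 6 points close together; Gm23935 and CT010467.1 split by genotype label, and Lyz2 has 1 floxed-labelled library at 46.9 FPKM.

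Ferritin genes were among the most abundant protein-coding genes. By mean FPKM over the 6 libraries Fth1 was the highest of these, although Lyz2 was above it in all 3 knockout-labelled libraries and Ctsb, Lyz2 and Psap were above it by counts. Fth1, the ferritin heavy chain that oxidises iron for storage, was at 9923, 11375 and 10438 FPKM in knockout-labelled and 12020, 11261 and 10164 FPKM in floxed-labelled libraries. Ftl1, the light chain, was at 4531, 5177 and 4774 FPKM in knockout-labelled and 4828, 4890 and 5934 FPKM in floxed-labelled libraries. For both chains the genotype labels overlapped, and Fth1 alone held 3.40% of FPKM. The 20 genes of the iron and heme list held 5.26 ± 0.43% of FPKM, and the ferritin chains made up 94.5% of it. Ferritins have many processed pseudogenes, and how their reads were split is uncertain. The remaining members were far lower. Hmox1, heme oxygenase, was at 253 ± 22.1 FPKM. Slc11a1, the iron and manganese transporter of phagosomes, was at 187 ± 11 FPKM and Slc48a1, which carries heme out of the phagolysosome, at 107 ± 11.6 FPKM. Slc40a1, the exporter ferroportin, was at 49.4 ± 10.3 FPKM and Tfrc, the transferrin receptor, at 49.2 ± 1.57 FPKM. Cd163, the receptor for haemoglobin and haptoglobin, was at 3.50 FPKM.

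Lysosomal genes, taken as 3 lists together, held 6.45 ± 0.492% of FPKM over 85 genes. Hydrolases and membrane proteins held 3.46%, cathepsins and their inhibitors 2.58% and the V-ATPase 0.411%, so that each list alone held less than the ribosomal proteins below. The share was 5.82% to 6.39% in knockout-labelled and 6.65% to 7.16% in floxed-labelled libraries. Within protein-coding FPKM it was 7.32% on average. There the labels overlapped, at 6.97% to 7.64% in knockout-labelled and 7.20% to 7.72% in floxed-labelled libraries. Of the 85 genes, 78 were at 1 FPKM or more, 69 at 10 or more and 32 at 100 or more. Psap, the precursor of the saposins that assist lipid hydrolysis, was the highest at 3469, 4142 and 3601 FPKM in knockout-labelled and 3754, 3852 and 3427 FPKM in floxed-labelled libraries. The proteases differed among themselves by orders of magnitude. After Ctsb came Ctss, cathepsin S, at 1695 ± 174 FPKM and Ctsd, the aspartic protease cathepsin D, at 1412 ± 98.2 FPKM. Ctsz was at 723 ± 50.0 FPKM, Ctsl at 148 ± 15.0 FPKM and Ctsc at 111 ± 14.8 FPKM. Ctsk, the collagen-degrading cathepsin of osteoclasts, was at 3.35 FPKM, Ctsg, a neutrophil granule protease, at 2.56 FPKM and Ctsw, the lymphocyte cathepsin, at 0.533 FPKM. Their inhibitors were also abundant, with Cst3 (cystatin C) at 886 ± 122.7 FPKM and Cstb (cystatin B) at 784 ± 105 FPKM. Among hydrolases and membrane proteins, Lipa, the acid lipase, was at 880 ± 38.6 FPKM, Lamp1 at 791 ± 38.4 FPKM, Grn (progranulin) at 691 ± 18.6 FPKM, the asparaginyl protease Lgmn at 637 ± 68.9 FPKM and Hexa, a subunit of hexosaminidase, at 594 ± 29.9 FPKM. Of these Grn had the smallest spread, with 680, 707 and 720 FPKM in knockout-labelled and 671, 686 and 682 FPKM in floxed-labelled libraries. The V-ATPase subunits were lower, led by Atp6v1a at 162 ± 14.6 FPKM and Atp6ap1 at 159 ± 4.50 FPKM. The subunit forms Atp6v1g3, Atp6v0a4 and Atp6v1e2 had no counts.

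The transcription factors TFEB and TFE3 bind a palindrome in the promoters of many lysosomal genes, known as the CLEAR element, and Tfeb and Tfe3 were at 12.3 ± 1.81 and 18.5 ± 1.19 FPKM. RefSeq promoters (GRCm38.p6, 250 bases before to 50 after the start) were matched by symbol for 66 of the 85 lysosomal genes and searched on both strands for TCACGTGA, which reads the same on both and contains the shorter E-box CACGTG. TCACGTGA was present in 7 of the 66 promoters (10.6%), those of Atp6v0d1, Atp6v0e, Atp6v1a, Cln3, Ctsa, Ctsd and Mcoln1. It was present in 198 of 8154 promoters of genes at 1 FPKM or more (2.43%) and in 304 of all 27025 (1.12%). CACGTG was present in 15 of the 66 (22.7%), in 1009 of the 8154 (12.4%) and in 8.09% of all. Other motifs and other gene lists were searched as well, so this was not the only search. A match is a description of the letters and no measure of binding. The promoters of Ctsd on the minus strand (chr7:142387778-142388077) and of Ctsa on the plus strand (chr2:164833523-164833822), which encodes the protective carboxypeptidase cathepsin A at 206 ± 7.59 FPKM, are printed to show the motif in its setting, with TCACGTGA in capitals. In Ctsd there is 1 copy, beginning 99 bases before the start, and in Ctsa there are 2 copies, the first beginning 13 bases before it.
Ctsd: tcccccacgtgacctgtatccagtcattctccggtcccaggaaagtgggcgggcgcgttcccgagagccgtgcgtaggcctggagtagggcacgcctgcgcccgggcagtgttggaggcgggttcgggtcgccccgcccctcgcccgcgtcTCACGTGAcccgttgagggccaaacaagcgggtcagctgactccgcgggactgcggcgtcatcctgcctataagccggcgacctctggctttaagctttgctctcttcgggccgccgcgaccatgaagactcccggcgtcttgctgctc
Ctsa: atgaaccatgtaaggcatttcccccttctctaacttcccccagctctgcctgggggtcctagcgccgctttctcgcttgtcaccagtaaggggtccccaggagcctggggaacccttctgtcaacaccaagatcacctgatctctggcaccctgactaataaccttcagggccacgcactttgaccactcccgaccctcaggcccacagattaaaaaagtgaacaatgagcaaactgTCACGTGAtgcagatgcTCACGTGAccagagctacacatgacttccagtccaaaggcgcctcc

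Translation took a similar share of FPKM. By counts the ribosomal proteins held 3.10%, against 6.46% for the lysosomal genes. The 87 genes of cytosolic ribosomal proteins held 5.81 ± 0.72% of FPKM, with 5.01% to 5.38% in knockout-labelled and 6.33% to 6.57% in floxed-labelled libraries. The ranges did not overlap within protein-coding FPKM either, at 6.001% to 6.44% in knockout-labelled and 6.86% to 7.09% in floxed-labelled libraries. Of these genes, 83 were at 1 FPKM or more and 62 at 100 or more, and 17 were among the first 100 genes. The highest was Rplp1, an acidic protein of the ribosomal stalk, at 1116 ± 93.9 FPKM, followed by Rplp0, the base of the stalk, at 668 ± 54.4 FPKM. Although ribosomes hold these proteins in near-equal amounts, the listed levels spanned 3 orders of magnitude, with Rps10 at 1.15 FPKM and Rpl24 at 0.895 FPKM. Ribosomal protein genes have many processed pseudogenes, and how reads were split among such copies was not tested. The testis-expressed Rpl10l had no counts, and the muscle form Rpl3l was at 0.0625 FPKM. The elongation factors Eef1a1, which brings tRNA to the ribosome, and Eef2, which moves it along, were at 2388 ± 111 and 771 ± 40 FPKM.

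Genes of the mitochondrial genome held 2.78 ± 0.237% of FPKM, and mt-Co1 and mt-Cytb made up 57.8% of it. mt-Co1, a subunit of cytochrome oxidase, was at 3791, 3792 and 4144 FPKM in knockout-labelled and 4174, 4000 and 4012 FPKM in floxed-labelled libraries. mt-Cytb was at 1146 ± 47.4 FPKM, mt-Nd1 at 816 ± 40.1 FPKM and mt-Nd5 at 608 ± 28.4 FPKM. The genes that lie between mt-Co1 and mt-Nd4 on the mitochondrial genome were 1 to 2 orders of magnitude lower, with mt-Co2 at 36.0, mt-Atp6 at 27.6, mt-Co3 at 28.5 and mt-Nd3 at 19.3 FPKM. Apart from mt-Atp6, these subunits belong to the same complexes as abundant ones. Whether reads of any of these genes, mt-Atp6 included, were lost to near-identical nuclear copies was not tested. The 78 nuclear genes of the respiratory chain held 1.17% of FPKM, led by the cytochrome oxidase subunits Cox6a1 at 213 ± 21.9 FPKM and Cox8a at 206 ± 19.4 FPKM. In glycolysis, Aldoa was at 413 ± 16.8 FPKM, Pkm at 403 ± 35.8 FPKM and Gapdh at 266 ± 10.4 FPKM.

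Cytoskeletal genes were the next large group, with 3.46 ± 0.291% of FPKM over 45 genes, all but 1 of which were at 1 FPKM or more. Tmsb4x, thymosin β4, which sequesters actin monomers, was at 2691 ± 327 FPKM and Actb at 1831 ± 57.4 FPKM. Cfl1 (cofilin), which severs filaments, was at 478 ± 35.5 FPKM. The integrin chain shared by leukocytes, Itgb2, was at 345 ± 14.8 FPKM, whereas Itgax, which encodes CD11c of dendritic cells and some macrophages, was at 0.656 FPKM. Genes for lipid handling held 1.5% of FPKM. Apoe, which carries cholesterol out of the cell, was at 1780, 1901 and 1838 FPKM in knockout-labelled and 2300, 2470 and 2230 FPKM in floxed-labelled libraries, and the labels did not overlap. The fatty acid receptor Cd36 was at 601 ± 77.5 FPKM and lipoprotein lipase, Lpl, at 358 ± 18.2 FPKM. The other apolipoproteins of that gene cluster were near 0, with Apoc1 at 0.423 FPKM, Apoc4 at 0.0221 FPKM and Apoc2 at 0.0123 FPKM.

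**Figure D3:**
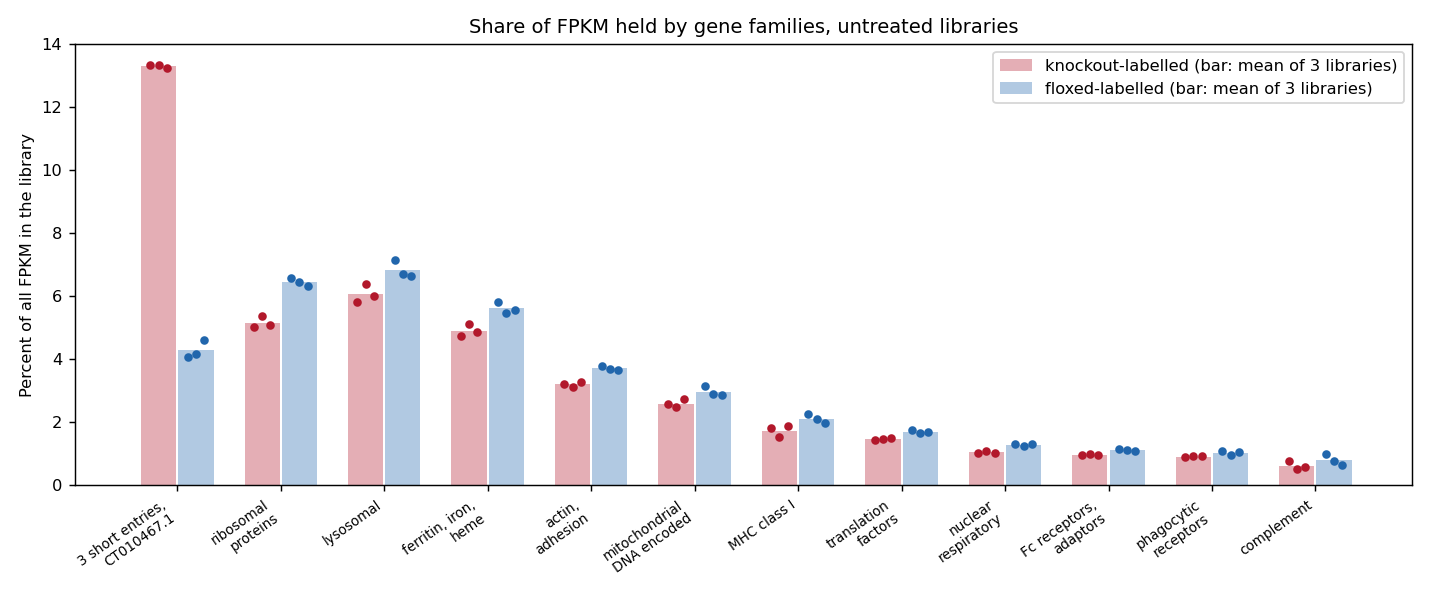
Share of FPKM (percent) held by the 3 short entries with CT010467.1 and by 11 gene families in the untreated libraries, with 1 point per library and a bar at the mean of 3, knockout-labelled left of floxed-labelled. Lysosomal genes, drawn as 3 lists together, hold 6.45% on average, ribosomal proteins 5.81% and iron and heme genes 5.26%, and the ribosomal protein shares of the labels do not overlap.

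Recognition and defence genes were present in graded amounts. MHC class I genes held 1.92 ± 0.259% of FPKM, with B2m, the invariant chain, at 2915 ± 332 FPKM, and the heavy chains H2-D1 and H2-K1 at 1421 ± 37.2 and 1041 ± 201 FPKM. MHC class II genes held 0.0612%, with the invariant chain Cd74 at 87.0 ± 11.7 FPKM, H2-Aa at 16.0 ± 4.95 FPKM, and Ciita, their transactivator, at 1.25 FPKM. The Fc receptor chain Fcer1g was at 719 ± 49.2 FPKM, the inhibitory receptor Sirpa, which binds CD47, at 645 ± 36.8 FPKM, Fcgr3 at 171 ± 15.5 FPKM and the high-affinity receptor Fcgr1 at 87.4 ± 11.2 FPKM. The inhibitory Fcgr2b was at 11.7 FPKM. Scavenger and lectin receptors included Clec4d at 376 ± 49.4 FPKM, Stab1 at 272 ± 31.2 FPKM, the mannose receptor Mrc1 at 194 ± 16.4 FPKM and Trem2 at 167 ± 13.6 FPKM, while Cd209a and Timd4 were at 0.0588 and 0.0212 FPKM. The 3 chains of C1q were among the first 100 genes but varied between libraries. C1qb was at 673, 309 and 320 FPKM in knockout-labelled and 990, 425 and 295 FPKM in floxed-labelled libraries, so that the library numbered 1 was the highest of its label in both. C1qa was at 419 ± 100 FPKM and C1qc at 377 ± 83.8 FPKM. Other genes of the classical pathway were near 0, with C1s1 at 0.106 FPKM and C2 at 0.0642 FPKM.

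Inflammatory cytokine genes were low. The 22 genes of the cytokine list held 0.0307% of FPKM, and 9 of them were at 1 FPKM or more. Tgfb1, which encodes a ligand used in this study, was the highest of the list at 51.8 ± 3.16 FPKM. The 2 highest genes made up 69.0% of the list, so its share is largely not that of the other cytokines. Tnf was at 12.8, 15.5 and 15.3 FPKM in knockout-labelled and 15.4, 18.9 and 17.4 FPKM in floxed-labelled libraries. Il1b was at 1.73 ± 0.78 FPKM and Nos2 at 0.0995 FPKM. Il6 had at most 2 counts in any library, and Csf2, whose product GM-CSF also grows macrophages, had none. Of 46 chemokine genes, 13 were at 1 FPKM or more and 15 had no counts. The abundant ones were Ccl9 at 347 ± 41.7 FPKM, Pf4 at 289 ± 52.1 FPKM, Ccl3 at 114 ± 10.1 FPKM and Ccl6 at 109 ± 8 FPKM, with Ccl2, the attractant of monocytes, at 1.11 FPKM. All 33 interferon-stimulated genes were at 1 FPKM or more with no interferon added, though only 4 reached 100 FPKM. Ifitm3, which blocks viral entry, was at 638 ± 79.1 FPKM, Ifi27l2a at 573 ± 64.5 FPKM and Bst2 (tetherin) at 305 ± 50.6 FPKM, while Mx2 was at 3.90 FPKM.

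RNA was taken after about 16 h without serum and the 4 h that followed, with no measurement before. Levels of growth genes therefore describe the state and no change. Of 37 cell cycle genes, 36 were at 1 FPKM or more. Mki67, a marker of cycling cells, was at 20.02, 14.8 and 19.5 FPKM in knockout-labelled and 19.2, 13.8 and 18.3 FPKM in floxed-labelled libraries, and Top2a was at 12.2 ± 1.85 FPKM. Cdkn1a, the inhibitor p21, was higher, at 116 ± 14.9 FPKM, and Pcna was at 71.0 ± 7.48 FPKM. Immediate early genes were uneven, with Atf3 at 119 ± 8.47 FPKM, Fos at 52.8 ± 4.59 FPKM and Jun at 28.6 ± 2.96 FPKM, against Egr1 at 0.483 FPKM and Fosb at 0.0614 FPKM. All 27 growth arrest and autophagy genes were at 1 FPKM or more. The autophagy receptor Sqstm1 (p62) was at 346 ± 7.79 FPKM and had the smallest coefficient of variation of the first 100 genes, 2.25%, with 331, 348 and 349 FPKM in knockout-labelled and 353, 346 and 348 FPKM in floxed-labelled libraries. Gas6, a ligand of Axl and Mertk, was at 260 ± 23.4 FPKM.

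Of 37 myeloid transcription factor genes, 23 were at 1 FPKM or more. Spi1, which encodes PU.1, was at 152, 159 and 162 FPKM in knockout-labelled and 159, 178 and 157 FPKM in floxed-labelled libraries. Maf was at 81.3 ± 4.29 FPKM, Irf5 at 80.3 ± 3.21 FPKM, Cebpa at 70.9 ± 5.15 FPKM and Irf8 at 39.0 ± 2.84 FPKM. Gata6 of peritoneal macrophages, Sall1 of microglia and Ebf1 of B cells had no counts. In the list of TGF-β and BMP receptors and Smads, 18 of 30 genes were at 1 FPKM or more. Which receptors bind the 2 ligands of the study in these cells was not tested. The TGF-β receptors Tgfbr1 and Tgfbr2 were at 41.9 ± 5.48 and 34.9 ± 2.42 FPKM, and Nrros, which tethers latent TGF-β1 on myeloid cells, was at 73.1 ± 4.33 FPKM. Of the BMP receptors, Acvrl1 was at 15.9 ± 0.812 FPKM and Bmpr2 at 6.86 ± 0.575 FPKM, while Bmpr1b was at 0.00168 FPKM. Smad4, the shared partner, was at 18.1 ± 1.32 FPKM and Smad2 at 12.4 ± 0.442 FPKM. Smad3 was at 4.28 ± 0.344 FPKM, Smad1 at 4.51 ± 0.392 FPKM and Smad5 at 4.20 ± 0.194 FPKM. Smad9 was at 0.00187 FPKM, and the ligand gene Bmp4 at 0.00392 FPKM.

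By biotype, protein-coding genes held 88.1 ± 4.91% of FPKM, with 83.5% to 83.9% in knockout-labelled and 92.4% to 92.8% in floxed-labelled libraries, and 98.3% of counts. Entries annotated as miRNA held 8.71 ± 4.79% of FPKM and 0.166% of counts, nearly all at Gm23935. Processed pseudogenes held 0.723% and long intergenic RNAs 0.5% of FPKM. The nuclear RNA Malat1 was at 383, 324 and 305 FPKM in knockout-labelled libraries, against 192, 227 and 225 FPKM in floxed-labelled libraries, with no overlap. Neat1, the scaffold of paraspeckles, was at 43.6 ± 7.16 FPKM. Xist, expressed from the inactive X, was at 0 to 0.0304 FPKM and the Y-linked Ddx3y at 19.97 to 22.8 FPKM in the 6 libraries; the labels used here give no sex.

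The lists of other lineages had medians between 0.0143 and 5.47 FPKM, well under the macrophage list, but most held a few expressed genes. In bulk RNA, a small number of cells of another type and a low level in every cell cannot be told apart. Tissue-resident macrophage genes were present in part. Cd5l and Hmox1 of Kupffer and red pulp macrophages were at 323 ± 14.4 and 253 ± 22.1 FPKM, but Clec4f had no counts and Timd4 was at 0.0212 FPKM. Fcrls of the microglia list was at 162, 126 and 171 FPKM in knockout-labelled and 192, 274 and 170 FPKM in floxed-labelled libraries, and Cx3cr1, the fractalkine receptor, was at 36.1 ± 7.63 FPKM. In the same list Tmem119 was at 0.389 FPKM. Marco and Pparg of alveolar macrophages were at 63.5 ± 24.2 and 16.3 ± 1.11 FPKM, with Siglecf at 0.149 FPKM and no counts for Car4. Of 8 peritoneal genes, Icam2 alone passed 1 FPKM, at 5.58 FPKM.

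Neutrophil and monocyte genes were the most frequent of the lineages outside the macrophages. Of 16 neutrophil genes, 12 were at 1 FPKM or more. S100a9, a calcium-binding protein abundant in neutrophils and monocytes, was at 54.4, 66.2 and 77.9 FPKM in knockout-labelled and 104, 70.5 and 107 FPKM in floxed-labelled libraries. The granule gene Ngp was at 30.1 ± 5.91 FPKM and the receptor Csf3r at 66.3 ± 6.25 FPKM, while Ly6g was at 0.0790 FPKM, with at most 4 counts in any library. Of 12 monocyte genes 8 were at 1 FPKM or more, with the chemokine receptor Ccr2 at 73.1 ± 19.4 FPKM and Ly6c2 at 3.49 FPKM. Of 15 mast cell and basophil genes, Il3ra, a chain of the interleukin-3 receptor, was at 13.0 ± 2.33 FPKM and the other 14 were below 1 FPKM, 7 of them with no counts. The eosinophil list had Ccr3 at 12.9 ± 4.92 FPKM and no counts for the peroxidase gene Epx. Of 11 osteoclast genes, 7 were at 1 FPKM or more, with the RANK gene Tnfrsf11a at 25.7 ± 1.31 FPKM and no counts for the calcitonin receptor Calcr.

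Some genes used as markers of other cells were abundant by themselves. Spp1 (osteopontin) was at 376, 461 and 409 FPKM in knockout-labelled and 462, 388 and 478 FPKM in floxed-labelled libraries, while Ibsp, Dmp1 and Sost of the osteoblast list had no counts. Pf4, a platelet factor, was at 289 ± 52.1 FPKM, with no counts for the platelet glycoproteins Gp6 and Gp1bb. Ighm, the immunoglobulin μ chain, was at 59.6, 68.3 and 61.1 FPKM in knockout-labelled and 81.6, 100.1 and 67.6 FPKM in floxed-labelled libraries, with Cd79b at 9.78 ± 1.66 FPKM and Cd79a at 0.340 FPKM. Il7r was at 13.8 ± 2.88 FPKM, with Cd3e at 0.00408 FPKM. Ly6a (Sca-1) and Procr of the stem cell list were at 41.3 ± 7.48 and 18.1 ± 3.75 FPKM, with Kit at 0.0541 FPKM. The erythroid list had Epor at 3.07 ± 0.72 FPKM. Fibroblast, endothelial and epithelial lists had 1 of 14, 1 of 10 and 0 of 7 genes at 1 FPKM or more, with Col1a1 at 0.0745 FPKM, Cdh5 at 0.0685 FPKM and Epcam at 0.0164 FPKM.

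**Figure D4:**
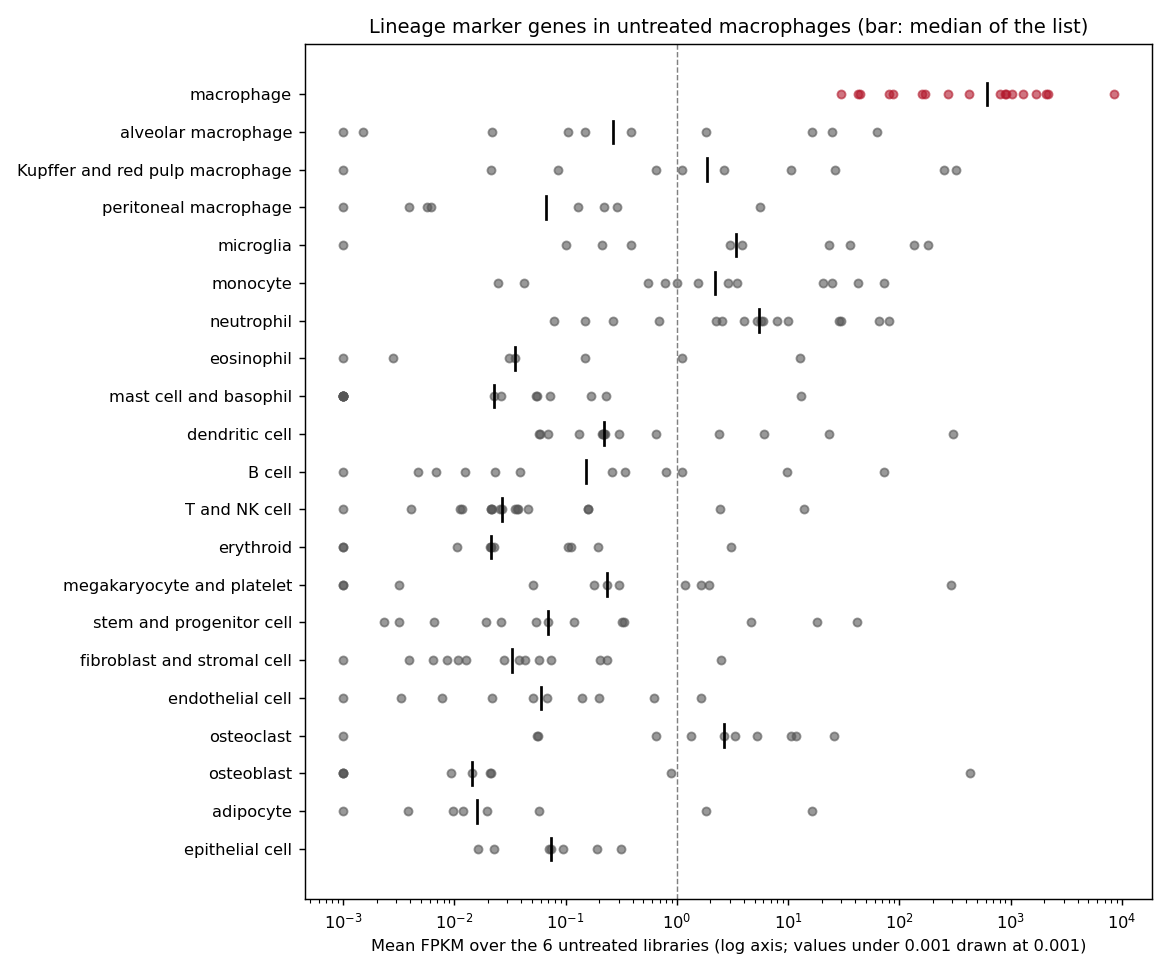
Mean FPKM over the 6 untreated libraries (log axis, values under 0.001 drawn at 0.001) of every gene in each lineage list, 1 point per gene and a bar at the list's median. The macrophage list has all its genes above 10 FPKM with a median of 613 FPKM, and each of the other lists has its median at or below 5.47 FPKM with a few genes far above it.

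Across the 6 libraries the levels of the first 100 genes were even, with a median coefficient of variation of 8.09%. For 65 of the 100 it was 10% or less and for 93 it was 20% or less. The lowest values were 2.25% for Sqstm1 and 2.62% for H2-D1, and the highest was 59.6% for CT010467.1. Besides the short entries, CT010467.1, Lyz2 and the C1q chains, no gene of the first 100 exceeded 20%.

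The label comparison asked how far pooling over genotype labels hides a difference, and the ranking itself did not use it. In untreated cells 190 of 14684 genes were higher and 161 lower in the knockout-labelled libraries (edgeR adjusted p under 0.05), which is 1.29% and 1.10% of genes tested. The fit counted all 18 libraries as independent, although same-numbered libraries of a label deviated together across treatments (correlation 0.333 to 0.731 over 18 pairs). The p-values between labels can therefore be too small. Of the first 100 genes, 2 were called higher and 12 lower, and 96 lay within 0.5 of 0 on the log2 scale. The higher ones were Gm23935, by 1.76 (SE 0.39, edgeR adjusted p 0.0287), and CT010467.1, by 1.71 (SE 0.41, edgeR adjusted p 0.0354). Gm23935 lost its call in 6 of 14 alternative analyses and CT010467.1 in 7. For Gm23935 these were the omission of each untreated library except the knockout-labelled library 2, and for CT010467.1 of each untreated library, with edgeR adjusted p up to 0.108 and 0.114. Both also lost the call without the floxed-labelled libraries numbered 1 in all treatments (edgeR adjusted p 0.124 and 0.135). Gm24270, with 447, 543 and 408 FPKM in knockout-labelled against 114, 177 and 199 FPKM in floxed-labelled libraries, differed by 1.53 but was not called (edgeR adjusted p 0.0788). Among the lower ones were Apoe, at -0.34 (SE 0.07, edgeR adjusted p 0.0158), Cst3, at -0.33 (SE 0.06, edgeR adjusted p 0.0111), and Tyrobp, at -0.24 (SE 0.05, edgeR adjusted p 0.0292). Apoe and Cst3 each lost the call in 4 of 14 alternatives, without the knockout-labelled library 1 (edgeR adjusted p 0.0851 and 0.0765) or library 3 (0.0709 and 0.0683), without the floxed-labelled libraries numbered 1 (0.0609 and 0.0577), and with only the compared groups fitted (0.0857 and 0.0930). Tyrobp lost it in 6 of 14, without either of these knockout-labelled libraries (edgeR adjusted p 0.150 and 0.111), without the floxed-labelled library 1 or 2 (0.0837 and 0.0634), without the floxed-labelled libraries numbered 1 (0.108), and with only the compared groups fitted (0.154). Malat1 was higher by 0.65 (SE 0.10, edgeR adjusted p 0.00399) and kept its call in 14 of 14 alternatives, with an edgeR adjusted p of 0.0398 without the floxed-labelled libraries numbered 1. Of 84 ribosomal protein genes tested, 27 were called lower and 0 higher, with a median of -0.20 against a median of 0.00 over all genes. Of 77 respiratory chain genes tested, 15 were called lower and 0 higher, with a median of -0.17. The Lyz2 difference of 1.30 (SE 1.34) was not called, with an edgeR adjusted p of 0.677.

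These label counts rest on single libraries. Leaving out the knockout-labelled library 1, 2 or 3 gave 27, 613 and 36 called genes in place of 351, and leaving out the floxed-labelled library 1, 2 or 3 gave 73, 210 and 140. For the ribosomal proteins the same omissions gave 0, 58, 1, 2, 11 and 16 genes called lower, while their median stayed between -0.26 and -0.17. For the respiratory chain genes they gave 1, 32, 1, 3, 11 and 6. Without the floxed-labelled libraries numbered 1 in all treatments, 39 genes were called, among them 2 respiratory chain genes and no ribosomal protein gene.

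Most of the 100 most abundant genes of untreated cells were also among the first 100 with either ligand. The first 100 genes were ranked on untreated values that enter both comparisons, which also share these control libraries, so their counts are set beside the background and nothing is read from them. With TGF-β1, 3413 of 14684 genes were higher and 3341 lower than in untreated cells, which is 23.2% and 22.8%. Of the first 100, 19 were called higher and 20 lower, and 94 lay within 0.5 of 0 on the log2 scale. In TGF-β1 libraries 91 of the 100 were still among the first 100. Lpl was lower at 141 ± 10.9 FPKM with TGF-β1, against 358 ± 18.2 FPKM untreated (SD, n = 6 each; log2 -1.35, SE 0.04, edgeR adjusted p 3.97e-15). The chemokine gene Ccl9 was lower at 156 ± 15.5 FPKM with TGF-β1, against 347 ± 41.7 FPKM untreated (log2 -1.16, SE 0.05, edgeR adjusted p 1.01e-12). Selenop, a secreted selenium carrier, was at 513 ± 62.1 FPKM with TGF-β1, against 855 ± 107 FPKM untreated (log2 -0.74, SE 0.09, edgeR adjusted p 7.58e-07). Ctsd was higher at 2401 ± 174 FPKM with TGF-β1, against 1412 ± 98.2 FPKM untreated (log2 0.77, SE 0.05, edgeR adjusted p 4.22e-10). Of Csf1r, Mpeg1, Ctsb, Lyz2 and Apoe, Apoe was called higher by 0.41 (edgeR adjusted p 5.57e-07) and Csf1r by 0.11 (edgeR adjusted p 0.0296). Mpeg1 differed by 0.07, Ctsb by -0.02 and Lyz2 by -0.25, none of them called.

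Calls with TGF-β1 within gene lists, of large and small share, are given beside the same background of 23.2% higher and 22.8% lower. Of 79 lysosomal genes tested 23 were called higher and 16 lower, near the background, with a median of 0.00. Among them Lipa fell by 0.40 on the log2 scale. Of 18 iron and heme genes, 1 was called higher and 13 lower, with a median of -0.33. Slc40a1 fell by 3.66 (SE 0.16, edgeR adjusted p 4.66e-13) and Ncoa4, which delivers ferritin to lysosomes, by 1.57 (SE 0.05, edgeR adjusted p 5.03e-15), while Fth1 differed by 0.06 and was not called. Of 84 ribosomal protein genes, 21 were called higher, near the background, and 2 lower, but 38 were called higher without the knockout-labelled untreated library 2. Without the knockout-labelled untreated library 1 or 3 there were 11 and 12, without the floxed-labelled untreated library 3 there were 9, and without the floxed-labelled TGF-β1 library 2 or 3 there were 11 and 10. Of 33 interferon-stimulated genes 2 were called higher and 22 lower, with a median of -0.45, and of 20 Fc receptor genes 3 and 11. The microglia list had 5 of 9 tested genes called higher and none lower, among them Cx3cr1 by 2.49 and Tmem119 by 3.06. A difference in the TGF-β1 response between the genotype labels was called for 1 gene, Id2, but not without the floxed-labelled libraries numbered 1 (edgeR adjusted p 1.00).

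With BMP4, 46 of 14684 genes were higher and 82 lower than in untreated cells, which is 0.313% and 0.558%. A fit with the replicate number as a block within each genotype label called 794 genes in place of 128. Leaving out the floxed-labelled untreated library 1 gave 208 genes and the knockout-labelled untreated library 2 gave 133, and leaving out any other of the 12 libraries gave 30 to 81. Of the first 100 genes 0 were called higher and 1 lower, all 100 lay within 0.5 of 0 on the log2 scale, and 97 were still among the first 100. The called gene was Pfn1, the actin-binding profilin, at -0.16 (SE 0.04, edgeR adjusted p 0.0455), a call lost in 13 of 21 alternatives, among them the omission of any library of the 12 except the floxed-labelled untreated library 1 (edgeR adjusted p 0.0703 to 0.138). Of the ribosomal protein genes 5 were called higher and 0 lower, with single libraries left out 0 to 10 were called higher, with DESeq2 13, and with the replicate block within genotype label 16. Id3, a target of BMP signalling, was higher at 6.31 ± 3.41 FPKM with BMP4, against 0.649 ± 0.175 FPKM untreated (SD, n = 6 each; log2 3.17, SE 0.38, edgeR adjusted p 0.000744), and was called in 21 of 21 alternatives.

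**Figure D5:**
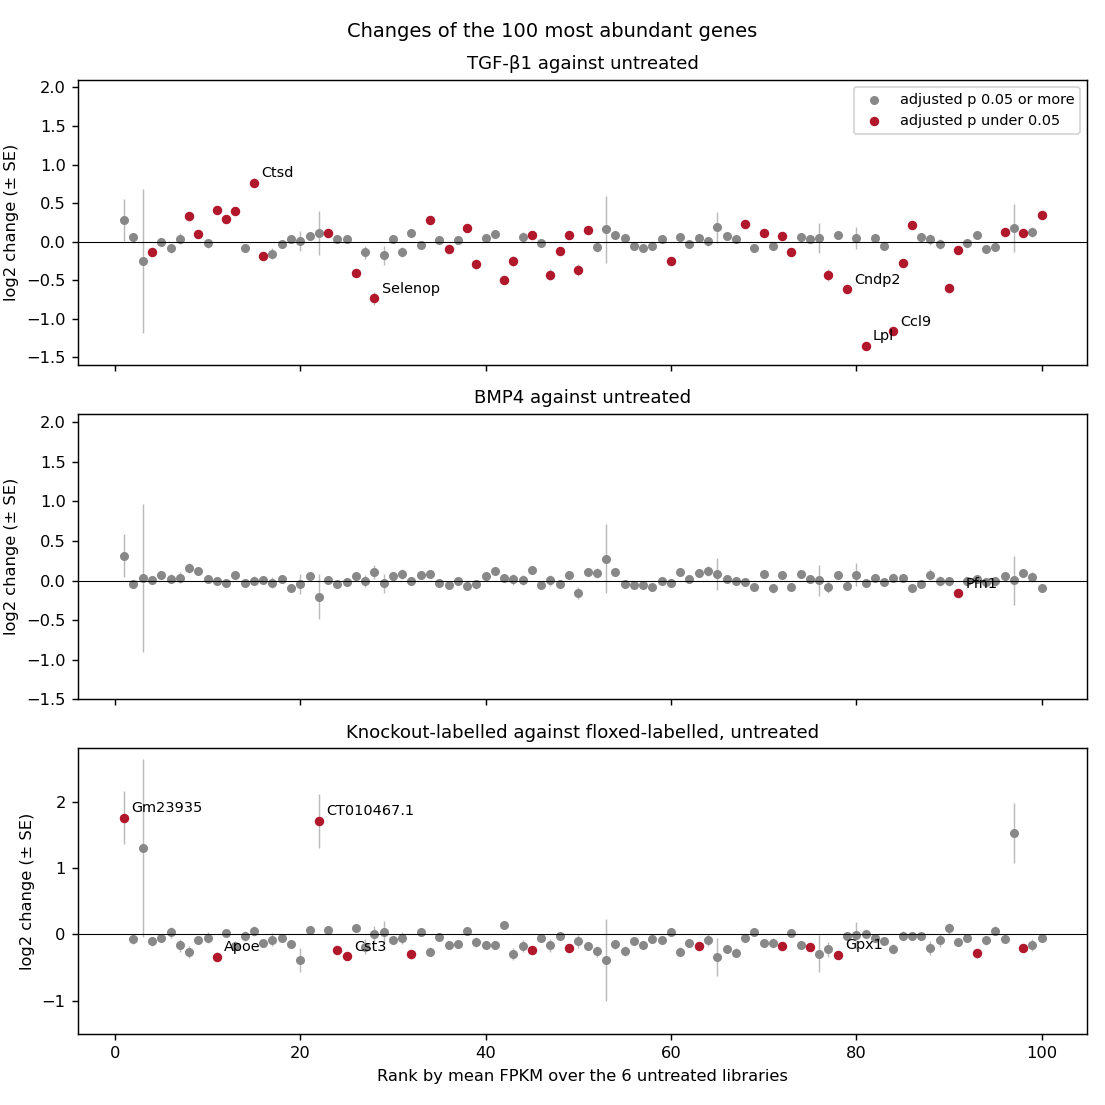
Log2 fold change (edgeR, with SE) of the 100 most abundant genes against their rank by mean FPKM in the 6 untreated libraries, in separate panels for TGF-β1 against untreated, BMP4 against untreated, and knockout-labelled against floxed-labelled untreated libraries; red points were called at an adjusted p under 0.05. The points span -1.35 to 0.77 with TGF-β1, -0.20 to 0.31 with BMP4 and -0.39 to 1.76 for the genotype labels.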

How the data were processed

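Polyadenylated RNA of 18 libraries was measured, of which the 6 labelled untreated are described. Per the submitters' processing notes, the tools were TopHat2 2.0.9, HTSeq 0.6.1 and Cufflinks 2.1.1 and the build mm10 (GRCm38.p6). The deposited counts are whole numbers of reads per gene, per the file headers, and entered the tests as they stand. The deposited FPKM are the authors' scaled values, and each equalled the count over gene length times a constant within 1e-06 for 100% of values. Whether counting used strand is not given in the sources used here, so overlapping and antisense genes are uncertain. The deposited table pairs identifiers with symbols, of which 100 belong to more than 1 gene. Another 78 columns of per-sample values were not used, 36 of them repeats.

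Genes were ranked by mean FPKM over the 6 libraries. Counts were tested in R 4.3.3 with edgeR 4.0.16 (TMM, factors 0.978 to 1.02; filterByExpr; quasi-likelihood F test, 2-sided, 6 groups, 12 residual degrees of freedom), and DESeq2 1.42.0 was an alternative. Contrasts with a ligand average both genotype labels. A gene was called at an adjusted p (Benjamini-Hochberg over the 14684 genes tested) under 0.05. The fit was tested on simulated data. Figures and tables used Python 3.11.15 with pandas 2.3.3 and matplotlib 3.10.9. Library pairs within a group differed by more than counting noise, with a chi-square of 3.69 to 28.6 for each degree of freedom. Same-numbered libraries of 1 genotype label deviated together (correlation 0.333 to 0.731 over 18 pairs, against -0.572 to 0.155 for different numbers), while between labels the same numbers gave -0.345 to 0.235. The numbers thus pair libraries within a label by the data, not by the labels. The main fit did not use this pairing.

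Genes named are the first 40 by FPKM, up to 6 leading members of each list and its members at 3 counts or fewer, the leading non-coding entries, and the called members with the lowest adjusted p; other genes were named after their values were seen. The ranked genes, lists and motifs were chosen with earlier results of these data known. Alternatives were other scalings, filters, blocks, denominators and omitted libraries; those without the floxed-labelled libraries numbered 1 and without the 3 entries of 57 bases and CT010467.1 were added after seeing the data.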

Additional observations from a re-analysis of the deposited data

Results flagged for a closer look

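Adgre1 was at 1506.21 FPKM in the floxed-labelled untreated library 2, while the other 5 untreated libraries lay between 1195.61 and 1302.08 FPKM. The gap to the next library took 0.657 of the whole range, which Dixon's 95% criterion for 6 values marks as outlying. It was the only such case among 40 genes examined, which is not more than chance gives, about 1 in 20. The criterion was applied over both labels together and did not mark Lyz2. That gene was at 46.9 FPKM in the floxed-labelled untreated library 1 and at 7318 to 13048 FPKM in the other 5.

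The response of Id2, an inhibitor of helix-loop-helix transcription factors, to TGF-β1 was called different between the genotype labels. Knockout-labelled libraries had 37.3, 35.4 and 34.5 FPKM with TGF-β1, against 7.59, 7.18 and 6.48 FPKM untreated. Floxed-labelled libraries had 25.03, 28.8 and 27.7 FPKM with TGF-β1, against 9.07, 8.05 and 8.53 FPKM untreated. The log2 response was larger by 0.65407 in knockout-labelled cells (SE 0.10, edgeR adjusted p 0.0433), the 1 gene called of 14684 in this test of the difference. The call was lost without the floxed-labelled libraries numbered 1 (0.56, SE 0.11, edgeR adjusted p 1.00). With the 12 untreated and TGF-β1 libraries left out in turn, an alternative chosen after the data were seen, the difference lay between 0.60 and 0.72. It was then called without the knockout-labelled untreated library 1 or the floxed-labelled untreated library 2 (edgeR adjusted p 0.0492 and 0.0440), and not called in the other 10 fits (0.0518 to 0.301).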

How the results depend on the processing

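The TGF-β1 count of 6754 stayed within 1.5 times under every alternative run (6349 to 6586 without single libraries). The BMP4 count of 128 became 337 with no low-count filter, 794 with the replicate block within genotype label, 31 with only the compared groups fitted, 46 without the floxed-labelled libraries numbered 1, 366 with DESeq2, and 30 to 208 without single libraries. The label count of 351 became 817 with no low-count filter, 29 with only the compared groups, 39 without the floxed-labelled libraries numbered 1, and 27 to 613 without single libraries, while DESeq2 gave 525. The replicate block within genotype label changed the TGF-β1 count to 7469; it cannot be fitted for the label comparison, where a block over all groups gave 431. The causes were not tested, except that fits of fewer libraries have fewer degrees of freedom. The main fit counted libraries that deviated together as independent, and how far this moved the counts was not tested. Genes at 1 FPKM or more, 11226, became 17741 at 0.1 FPKM and 4460 at 10 FPKM, and 11177 to 11271 without single libraries.

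Shares of FPKM moved with the denominator. As a share of counts, the first 10 genes held 7.75%, the first 100 held 23.2%, ribosomal proteins 3.10%, mitochondrial genes 1.12% and protein-coding genes 98.3%. Without genes under 200 bases, the first 10 held 15.3%, the first 100 held 34.2%, lysosomal genes 7.11% and protein-coding genes 97.2%. Among protein-coding genes alone the first 10 held 15.7%, the first 100 held 34.9%, ribosomal proteins 6.57% and lysosomal genes 7.32%. Without the 3 entries of 57 bases and CT010467.1 the first 10 held 15.2%, the first 100 held 33.7%, mitochondrial genes 3.04%, lysosomal genes 7.07% and protein-coding genes 96.6%. Leaving out single libraries gave 20.6% to 22.7% for the first 10, 38.5% to 40.03% for the first 100, 5.66% to 5.97% for ribosomal proteins, 2.71% to 2.84% for mitochondrial genes, 6.31% to 6.58% for lysosomal genes and 87.2% to 89.1% for protein-coding genes. These shares and the counts of called genes have no direction, so the alternatives could not show a reversal in them. Log2 changes of the named genes for which alternatives were run kept their sign in each alternative, although some calls were lost. Genes with at most 3 counts in each untreated library, 35670 of 54532, are too shallow to rank.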

Other observations

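Some genes stood apart in single library numbers in all 3 treatments, and these were chosen after their values were seen. Gm6969, a pseudogene entry, was at 5.14 FPKM in the knockout-labelled untreated library 2, against 105 and 112 FPKM in libraries 1 and 3, and at 1.74 to 2.61 FPKM in the floxed-labelled untreated libraries. The same knockout-labelled number was low with TGF-β1 (3.63 FPKM) and BMP4 (4.04 FPKM). H2-T23, a non-classical MHC class I gene, was at 10.97 FPKM in the knockout-labelled untreated library 2 and at 56.0 to 128 FPKM in the other 5. H2-T22 was at 3.62 FPKM there and at 23.5 to 53.4 FPKM in the other 5. Ifi44l, an interferon-stimulated gene, was at 0.588 FPKM in the knockout-labelled untreated library 3, against 38.0 to 88.5 FPKM in the other 5, and at 0.969 and 1.53 FPKM in the libraries of that number with TGF-β1 and BMP4. Gvin1, an interferon-inducible GTPase gene, was at 0.0237 FPKM in the floxed-labelled untreated library 1, the library with the low Lyz2, and at 1.33 to 2.96 FPKM in the other 5.

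The entries that led the FPKM ranking were not uniform outside the untreated libraries. Gm23935 was at 97117, 30018 and 16360 FPKM in the knockout-labelled BMP4 libraries and at 17299, 11946 and 22049 FPKM in the floxed-labelled BMP4 libraries, so that the labels overlapped there. Malat1 was at 235, 221 and 258 FPKM in knockout-labelled and 249, 242 and 241 FPKM in floxed-labelled BMP4 libraries, which also overlapped. In the edgeR test of whether the BMP4 response differed between the labels, 0 of 14684 genes were called, and 839 had an unadjusted p under 0.05.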
